A study of Mus musculus with 4 samples.

Results

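Retinas exposed to 4-hydroxytamoxifen (4-OHT) and given vitamin E were compared with retinas exposed to the same drug and given lutein. The comparison used 2 of the 4 arrays of the series, chosen by their titles, and covered the 21437 of 35737 genes on the array whose signal exceeded background clearly (the scanner's well-above-background flag) on either of these arrays. The samples were 3D-retinas, optic-cup-like aggregates of floating cultures, made from induced pluripotent stem cells of a mouse Nrl-GFP line whose reporter marks rods. Those with bright fluorescence were picked and treated on differentiation day 23 and harvested on day 25, a time at which photoreceptors begin to degenerate according to the labels. Vitamin E at 400 µM or lutein at 200 nM was given together with 4-OHT at 5 µM, a further group received 4-OHT at 5 µM alone, and the last received ethanol as vehicle. The first 3 groups therefore share the drug and its dose, and all 4 groups share the Nrl-GFP line, the differentiation protocol and the days of treatment and collection. No genotype or strain beyond that line is given.

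Each group was a single array of RNA pooled from 24 3D-retinas, so no difference below has a replicate check or a p-value. The doses of the supplements differ and lie on different scales, so the values compare these preparations at these doses and not the compounds at a matched dose. A level is given as a scaled signal, the probe's intensity divided by the 75th percentile of its array's gene spots, and compares a probe between arrays, never one gene with another. A difference is the log2 scaled signal with vitamin E minus that with lutein, so that negative values are lower with vitamin E. A probe that was dim on 1 of the arrays gives only a bound, marked by the words at least before the fold. A gene was counted when the difference was at least 2-fold. Judged from probes printed in 10 spots, noise between spots gave a log2 difference an SD of 0.10 at scaled signals of 0.25 or more and 0.33 below that, which leaves out variation between cultures.

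4-OHT is an active metabolite of tamoxifen, a drug with known retinal toxicity. Vitamin E (tocopherol) is a lipid-soluble antioxidant that ends chains of lipid peroxidation in membranes, and lutein is a xanthophyll carotenoid that accumulates in the primate macula. The integrated stress response (ISR) is a pathway in which kinases that sense amino acid shortage, unfolded protein, heme deficiency or viral RNA phosphorylate the initiation factor eIF2α, general translation falls, and the transcription factor ATF4 turns on genes of amino acid supply and cell fate. Immediate early genes such as Fos and Egr1 are transcribed within minutes of a stimulus through MAP kinase and calcium signalling.

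Most genes lay close together on the vitamin E and lutein arrays. Of all 21437 genes, 19072 (89.0%) were within 1.5-fold, 106 (0.494%) stood 2-fold or more above lutein with vitamin E and 784 (3.66%) 2-fold or more below it. The 13773 genes with a symbol gave 46 higher (0.334%) and 374 lower (2.72%) at that limit, around a median of 0.04. Past 4-fold, 8 symbol genes were higher with vitamin E and 83 were lower. Long intergenic non-coding RNA regions leaned the same way, with 21 higher and 163 lower (6.13%) of 2660, around a median of -0.06. Part of each count consists of dim probes: with both arrays well above background, 18 symbol genes were higher and 237 lower of 13104. The imbalance was present at every brightness. Among the 4873 symbol genes with a mean scaled signal of 4 or more, 1 was at least 2-fold higher with vitamin E and 42 were lower, and among the 1960 below 0.25, 13 were higher and 90 lower.

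The 2 arrays differed in background. The SD of the negative control signal was 4.09 scanner units on the vitamin E array and 5.76 on the lutein array, and the fitted spatial trend was 2.40 and 6.86 units, against 3.98 to 4.67 and 2.36 to 2.73 on the 4-OHT and vehicle arrays. The lowest scaled signal well above background was 0.0430 with vitamin E and 0.0570 with lutein. The part of these background values in the counts of dim genes was not tested. Of 21 rod phototransduction genes, 21 were detected with vitamin E, 4-OHT alone and vehicle and 20 with lutein, some of them close to background. The rod transcription factor Nrl had scaled signals between 302 and 507 on the 4 arrays. The defining markers of the labelled tissue were thus present. Of other cell types, 5 of 11 microglia and blood cell markers and 5 of 8 pluripotency markers were detected with vitamin E and with lutein. The detected pluripotency markers include Esrrb, which is also on the list of photoreceptor transcription factors. Esrrb made up 4.79 of the pluripotency list's summed scaled signal of 8.06 with vitamin E and 2.54 of 6.04 with lutein. Of 12 endothelial and mesenchymal markers 7 were detected with vitamin E and 4 with lutein, and of 15 lens crystallins 6 with vitamin E and 5 with lutein. The array measures a bulk sample, in which fewer cells of a type and less RNA per cell cannot be told apart.

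Lists of the ISR, amino acid supply, immediate early genes and cytokine signalling had lower medians with vitamin E, and photoreceptor lists had slightly higher ones. Other stress-related lists lay nearer 0, such as the NRF2 pathway at 0.02, ER chaperones at 0.09, antioxidant enzymes at 0.17 and heat shock proteins at -0.20. Across 50 gene lists, 9 had a median difference at or below -0.5, 5 had a median of 0.25 or more, and 33 lay within 0.25 of 0. Of the 790 measured genes on these lists, 93 were lower with vitamin E by 2-fold or more and 4 were higher.

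**Figure D1:**
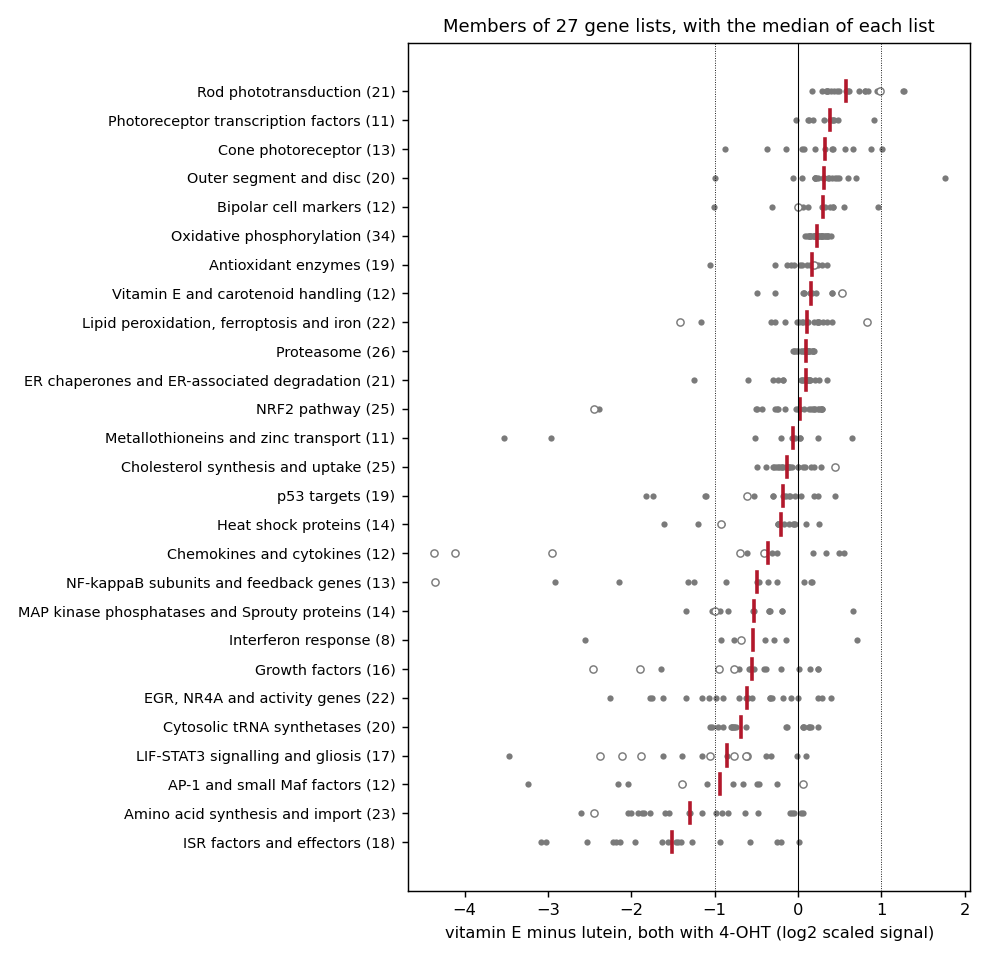
Difference between the vitamin E and lutein arrays (log2 scaled signal, vitamin E minus lutein, both with 4-OHT) for each measured member of 27 gene lists, with the number measured in brackets, the list's median as a red bar, bounds as open circles and 2-fold limits as dotted lines. The medians run from 0.58 for rod phototransduction to -1.51 for ISR factors and effectors, and single members of the chemokine and NF-kappaB lists lie below -4.

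ISR transcription factors and effectors formed the list with the lowest median. Of 19 members, 18 were measured, 13 of these were at least 2-fold lower with vitamin E, none was higher, and the median was -1.51. Atf3, a stress-induced bZIP factor, had a scaled signal of 2.40 with vitamin E, 20.3 with lutein, 28.4 with 4-OHT alone and 1.37 with vehicle. Chac1, which degrades glutathione, had 9.71 with vitamin E, 56.1 with lutein, 56.2 with 4-OHT alone and 7.70 with vehicle. Ddit3, which encodes the pro-apoptotic factor CHOP, had 4.90 with vitamin E, 13.0 with lutein, 14.1 with 4-OHT alone and 4.86 with vehicle. For all 3 genes the vitamin E array lay closer to vehicle and the lutein array closer to 4-OHT alone, and the vitamin E level was 8.46-fold lower than the lutein level for Atf3, 5.78-fold for Chac1 and 2.66-fold for Ddit3.

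Other members showed the same ordering. Gdf15, a secreted stress cytokine, was 8.15-fold lower with vitamin E, at 2.5 with vitamin E, 20.3 with lutein, 28.3 with 4-OHT alone and 1.83 with vehicle. Nupr1, a stress-induced chromatin protein, had 0.832 with vitamin E, 3.67 with lutein, 6.58 with 4-OHT alone and 0.330 with vehicle. Nupr1 thus stayed above vehicle on both supplement arrays. Cebpb, the partner of ATF4 at many of its targets, was 4.64-fold lower with vitamin E, the translational repressor Eif4ebp1 4.53-fold and the pseudokinase Trib3 3.88-fold. Ppp1r15a, the phosphatase subunit that reverses eIF2α phosphorylation, was 2.73-fold lower. Atf4 itself, which is regulated mainly at translation, differed by -0.57, at 310 with vitamin E, 461 with lutein, 452 with 4-OHT alone and 297 with vehicle. The remaining members below 2-fold were Sesn2 at -0.94, Vldlr at -0.26, Ddit4 at -0.21 and Ero1a at 0.01.

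**Figure D2:**
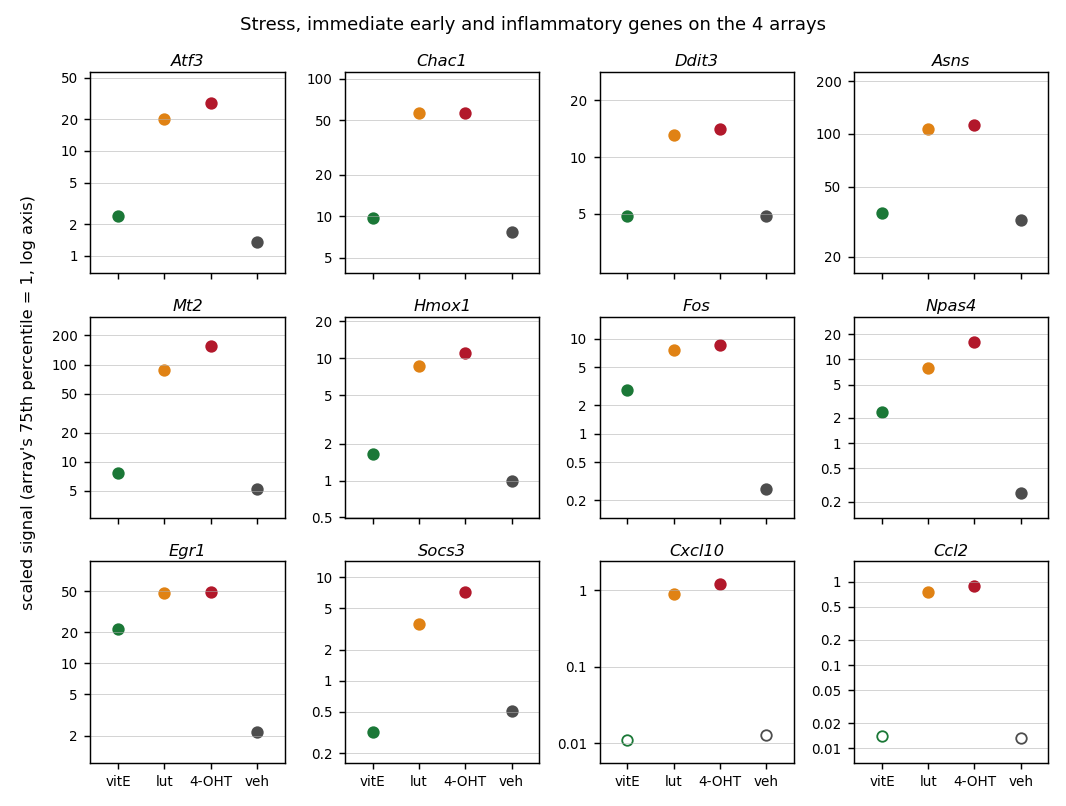
Scaled signal (log axis, array's 75th percentile set to 1) of 12 genes on the arrays of 4-OHT with vitamin E, 4-OHT with lutein, 4-OHT alone and vehicle, 1 point per array, with open circles for probes not well above background. The lutein point lies at or below the 4-OHT point in each panel and the vitamin E point below both, near vehicle for Atf3, Chac1, Ddit3, Asns and Mt2 and well between the vehicle and lutein points for Fos, Npas4 and Egr1.

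Genes that supply amino acids, most of them known ATF4 targets, followed. Of 24 members, 23 were measured, 13 were at least 2-fold lower with vitamin E, none was higher, and the median was -1.30. Asns, asparagine synthetase, had 35.4 with vitamin E, 107.3 with lutein, 113 with 4-OHT alone and 32.2 with vehicle, a 3.03-fold lower level with vitamin E than with lutein. The cationic amino acid transporters Slc7a3 and Slc7a1 were 6.06-fold and 4.02-fold lower, and Slc7a5, the light chain of the large neutral amino acid transporter, 3.67-fold. Slc7a11, the cystine importer that feeds glutathione synthesis, was at least 5.44-fold lower, since its probe was dim with vitamin E and vehicle and read 0.234 with lutein and 0.257 with 4-OHT alone. In the serine and one-carbon branch, Phgdh was 3.77-fold lower, Psat1 2.92-fold, Shmt2 2.23-fold and Mthfd2 4.13-fold. Got1, Slc1a4 and Slc6a9 were within 1.1-fold, at 0.03, -0.05 and -0.10.

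The cytosolic tRNA synthetases, which charge tRNAs with amino acids, split within the list. The median of 20 was -0.69, with Tars at -1.06 and Gars at -1.03 past 2-fold, and Sars, Cars, Iars and Eprs between -0.96 and -0.80. By contrast, Qars, Hars, Dars and Rars lay between 0.13 and 0.24. ER chaperones and ER-associated degradation genes, which respond mainly to the ATF6 and XBP1 arms of the unfolded protein response, had a median of 0.09. In that list 1 of 21 was past 2-fold, Herpud1 at -1.25, a membrane protein of ER-associated degradation that ATF4 also induces, while the ER chaperone Hspa5 differed by -0.30. The heat shock protein list, around a median of -0.20, had 2 of 14 past 2-fold, the inducible chaperone Hspa1a at -1.61 and its cochaperone Bag3 at -1.20.

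The element through which ATF4 and C/EBP factors act was looked for in promoters, taken from RefSeq (GRCm38.p6) as 250 bases before to 50 after each annotated start. The letters searched were TGATGNAAN on both strands, and 3.95% of 32851 promoters held them. In the ISR list 7 of 23 promoters held the element, those of Atf3, Chac1, Fgf21, Jdp2, Nupr1, Trib3 and Vldlr. In the amino acid list 5 of 24 did, those of Asns, Got1, Pycr1, Slc1a4 and Slc7a11, of which Got1 and Slc1a4 did not differ between the supplements by more than 1.1-fold. A match describes letters and not binding. The stretches before the start of 3 strongly differing ISR genes are printed with the element in capitals, at chr2:119351012-119351121 (plus strand), chr1:191183384-191183493 (minus strand) and chr7:126625521-126625630 (minus strand). Its first base lay 194 bases before the start of Chac1 and 111 before those of Atf3 and Nupr1, and in all 3 it reads as the reverse complement, with the shared core ttgcatca.
Chac1: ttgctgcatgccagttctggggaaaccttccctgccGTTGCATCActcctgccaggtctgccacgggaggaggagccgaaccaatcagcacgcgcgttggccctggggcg
Atf3: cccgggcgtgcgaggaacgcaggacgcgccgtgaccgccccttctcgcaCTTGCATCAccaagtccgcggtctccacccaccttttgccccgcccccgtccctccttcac
Nupr1: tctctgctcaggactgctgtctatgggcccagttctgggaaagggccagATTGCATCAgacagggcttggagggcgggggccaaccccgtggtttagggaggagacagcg

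Metallothioneins bind zinc and copper and scavenge radicals. Mt2 had the lowest difference of all symbol genes well above background on both arrays, with 7.59 with vitamin E, 87.8 with lutein, 157 with 4-OHT alone and 5.26 with vehicle. Mt1 had 19.8 with vitamin E, 155 with lutein, 252 with 4-OHT alone and 11.4 with vehicle. Vitamin E was 11.6-fold below lutein for Mt2 and 7.82-fold for Mt1, and a second Mt1 probe, dim with vitamin E and vehicle, read 0.310 with lutein and 1.13 with 4-OHT alone. The rest of the metallothionein and zinc transport list did not share this. Mt3, the metallothionein of neurons, differed by 0.02, Mtf1, the zinc-sensing transcription factor, by 0.02 and the zinc exporter Slc30a1 by -0.51, and 2 of 11 members were past 2-fold.

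The metal response element, searched as TGCACNC or TGCGCNC on both strands, is short and common and was held by 25.7% of all promoters. In this list 8 of 12 promoters held it, including those of Mt3 and Slc30a4, which differed by 0.02 and -0.04. Within these windows the Mt2 promoter had 4 matches and the Mt1 promoter 3. The stretches before the start are printed with matches in capitals, at chr8:94172378-94172617 for Mt2 and chr8:94178969-94179088 for Mt1, both on the plus strand, and 1 further match in Mt2 and 2 in Mt1 lay after the start.
Mt2: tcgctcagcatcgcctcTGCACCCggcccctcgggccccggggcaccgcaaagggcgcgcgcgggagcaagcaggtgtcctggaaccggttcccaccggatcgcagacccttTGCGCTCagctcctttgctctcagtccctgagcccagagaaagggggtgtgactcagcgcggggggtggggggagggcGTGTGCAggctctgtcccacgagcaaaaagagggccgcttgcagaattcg
Mt1: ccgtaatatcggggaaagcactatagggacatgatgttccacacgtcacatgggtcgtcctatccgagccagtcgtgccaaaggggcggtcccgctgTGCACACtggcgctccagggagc

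Immediate early genes were also lower with vitamin E, but on that array several stayed far above vehicle. Fos, a subunit of AP-1, had 2.90 with vitamin E, 7.56 with lutein, 8.52 with 4-OHT alone and 0.261 with vehicle. Its probe was printed in 10 spots, which ranged from 2.78 to 3.11 on the vitamin E array and from 7.17 to 8.08 on the lutein array, without overlap. By the mean of its spots, Fos was 2.61-fold lower with vitamin E than with lutein, and 11.1-fold and 28.9-fold above vehicle on the 2 arrays. Egr1, a zinc finger factor induced by MAP kinase signalling, had 21.8 with vitamin E, 48.5 with lutein, 49.0 with 4-OHT alone and 2.17 with vehicle. Npas4, induced by calcium entry in neurons, had 2.36 with vitamin E, 7.97 with lutein, 16.2 with 4-OHT alone and 0.255 with vehicle. For these 3 genes the vitamin E level lay between the vehicle and lutein levels, and farther above vehicle than for Atf3, Chac1 and Ddit3.

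In the AP-1 and small Maf list, 6 of 12 measured members were at least 2-fold lower with vitamin E, none was higher, and the median was -0.94. Maff, a small Maf factor, was 9.42-fold lower, Junb 4.49-fold and Fosb 4.12-fold, whereas Jun and Jund, both bright on all arrays, differed by -0.79 and -0.25. Among EGR, NR4A and activity genes 7 of 22 were at least 2-fold lower, with a median of -0.62. Egr2 was 4.78-fold lower, the synaptic gene Arc 3.43-fold and Klf4 3.08-fold. Btg2, Ier5 and Nptx2 were above 0, at 0.23, 0.29 and 0.40. MAP kinase phosphatases and Sprouty proteins, which restrain the kinases that drive these genes, centred on -0.53, and 4 of 14 were past 2-fold, Dusp4, Dusp1, Dusp16 and, as a bound, Spry4. Dusp14 ran the other way at 0.66. The AP-1 site TGANTCA was found in none of 13 promoters of the AP-1 list and in 1 of 31 of the EGR and NR4A list, against 7.81% of all promoters, and the CRE TGACGTCA in 1 of 13 and 1 of 31, those of Maff and Btg2, against 1.79%.

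Cytokine signalling genes included several of the largest differences, among them bounds for genes whose probes were dim with vitamin E. Cxcl10, a T cell chemokine, read 0.891 with lutein and 1.19 with 4-OHT alone by its brighter probe, and its vitamin E level was at least 20.7-fold below lutein. Cxcl10 has 2 probes, and over 9 processing settings its difference ran from -6.34 to -1.27. Ccl2, a monocyte chemokine printed in 10 spots, read 0.748 with lutein and 0.876 with 4-OHT alone, and was at least 17.4-fold lower with vitamin E. The neutrophil chemokine Cxcl1 was at least 7.76-fold lower. None of the 3 was well above background with vehicle. Across the chemokine and cytokine list 3 of 12 measured members were past 2-fold, all 3 of them bounds, and the median of -0.36 became 0.18 when both arrays had to be well above background. Complement C3, Il18, the neuronal chemokine Cx3cl1 and Cxcl16 were above 0, between 0.18 and 0.55.

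Among NF-kappaB genes, 5 of 13 were at least 2-fold lower. The coactivator Bcl3 was at least 20.5-fold lower, the subunit Relb 7.57-fold and the subunit Nfkb2 2.49-fold, while the subunit Nfkb1 and the feedback inhibitor Tnfaip3 differed by 0.16 and 0.07. Traf1, an adaptor of tumour necrosis factor receptors, was 4.45-fold lower with vitamin E and was not well above background with 4-OHT alone. In the LIF-STAT3 list, which holds the gp130 cytokine pathway of the injured retina, 8 of 17 were at least 2-fold lower and the median was -0.85. Socs3, the feedback inhibitor of this pathway, had 0.322 with vitamin E, 3.56 with lutein, 7.10 with 4-OHT alone and 0.510 with vehicle, an 11.03-fold difference between the supplements. The oncostatin receptor Osmr and the interleukin receptor Il6ra were at least 4.34-fold and 5.19-fold lower, Stat3 2.64-fold and Cebpd 3.08-fold. The receptors Il6st and Lifr differed by -0.33 and 0.10, and Gfap, the intermediate filament of reactive glia, was close to background, at 0.0898 with lutein and dim with vitamin E. In the interferon list 1 of 8 measured members was past 2-fold, the transcription factor Irf1 at 5.88-fold lower, and Stat2 and Isg15 differed by -0.14 and -0.40.

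Further stress-related genes stood out singly. Tnfrsf12a, the receptor of the cytokine TWEAK, had 1.68 with vitamin E, 14.3 with lutein, 22.5 with 4-OHT alone and 1.43 with vehicle, an 8.55-fold difference. Slc23a3, a member of the ascorbate transporter family, had 0.0544 with vitamin E, 0.506 with lutein, 1.82 with 4-OHT alone and 0.0648 with vehicle. Madcam1, an adhesion molecule, was 7.94-fold lower with vitamin E. Among p53 targets, Cdkn1a, a cell cycle inhibitor printed in 10 spots, was 3.53-fold lower and the pro-apoptotic Bbc3 3.34-fold, while Mdm2, Bax and Ccng1 differed by -0.19, -0.17 and -0.14; 4 of 19 members were past 2-fold. In the BCL-2 and caspase list Hrk, a pro-apoptotic gene of neurons, was 3.37-fold lower with vitamin E, and the anti-apoptotic Bcl2l1 and Xiap differed by 0.33 and 0.33. Of secreted growth factors 3 of 16 were past 2-fold, the EGF-family ligand Areg and the activin subunit Inhba as bounds of at least 5.52-fold and 3.73-fold and the neuropeptide precursor Vgf at 3.12-fold lower. Timp1, an inhibitor of matrix proteases, was 4.95-fold lower and Plaur, the urokinase receptor, at least 5.31-fold.

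Genes of antioxidant defence mostly did not separate the supplements. In the list of NRF2 targets, which encode detoxifying and glutathione enzymes, the median was 0.02 over 25 genes and 2 were past 2-fold. Hmox1, heme oxygenase, had 1.66 with vitamin E, 8.68 with lutein, 10.9 with 4-OHT alone and 0.990 with vehicle, and its 2 probes gave -2.39 and -1.69. Slc7a11, described above, was the other. Gclc and Gclm, the subunits of the enzyme that limits glutathione synthesis, differed by -0.24 and -0.26, Txnrd1 by -0.16, G6pdx by 0.28 and Nfe2l2, which encodes NRF2, by 0.07. The antioxidant response element, TGACNNNGC on both strands, was held by 9 of 29 promoters of the list against 12.4% of all promoters. In the list of antioxidant enzymes the median was 0.17 over 19 genes. Superoxide dismutases Sod1 and Sod2 differed by -0.09 and 0.17, catalase (Cat) by -0.27 and Gpx4, which reduces lipid peroxides and is the central enzyme against ferroptosis, by 0.10. A single member was past 2-fold, the glutathione peroxidase Gpx2 at -1.06.

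Of the genes that handle the supplements themselves, none was past 2-fold in 12 measured, with a median of 0.15. Ttpa, the tocopherol transfer protein, was not well above background on any of the 4 arrays. Scarb1, the scavenger receptor that takes up both tocopherol and carotenoids, had 21.5 with vitamin E, 16.2 with lutein, 12.2 with 4-OHT alone and 22.01 with vehicle. Stard3, a lutein-binding protein of the primate retina, differed by 0.05, and Bco2, which cleaves xanthophylls, by 0.16. For cholesterol synthesis the median was -0.13, which lies above 0 under spike-in scaling, and none of 25 genes was past 2-fold. Abca1 and Abcg1, sterol exporters controlled by the oxysterol receptor LXR, differed by 0.51 and 0.45. Retinoid genes had a median of 0.08, with the retinoic acid-forming enzyme Aldh1a3 7.12-fold lower with vitamin E and its family member Aldh1a1 at 0.83.

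Rod phototransduction genes were all higher with vitamin E than with lutein, by modest amounts. All 21 members were above 0, with a median of 0.58 against 0.04 over all symbol genes, and 2 were past 2-fold. Guca1a, dim with lutein, gave only a bound. Of the 408 symbol genes 2- to 4-fold lower with 4-OHT than vehicle, 91.7% were above 0, with a median of 0.34. Gnat1, the alpha subunit of rod transducin, had 6.22 with vitamin E, 2.58 with lutein, 1.18 with 4-OHT alone and 48.0 with vehicle, a 2.42-fold higher level with vitamin E. Slc24a1, the sodium-calcium exchanger of rods, was 2.40-fold higher. Its signal with lutein, 0.0579, was close to the lowest well above background on that array, 0.0570. Over 10 processing settings its difference ran from 0.46 to 1.46. Rcvrn, the calcium sensor recoverin, had 98.8 with vitamin E, 65.3 with lutein, 40.7 with 4-OHT alone and 176 with vehicle. Vitamin E thus lay between lutein and vehicle for these genes, and Gnat1 remained 7.71-fold below vehicle with vitamin E and 18.6-fold below with lutein. The inhibitory phosphodiesterase subunit Pde6g differed by 0.80, the rod channel subunit Cnga1 by 0.73 and phosducin (Pdc) by 0.61. At the low end were the rhodopsin kinase Grk1 at 0.17 and the GTPase-accelerating protein Rgs9 at 0.28.

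Beyond phototransduction, the median of 11 photoreceptor transcription factors was 0.38 and none was past 2-fold, among them Nrl at 0.31, Crx at 0.41, Nr2e3 at 0.43 and Esrrb at 0.92. Outer segment and disc genes had a median of 0.31. Fscn2, an actin-bundling protein of photoreceptors, was the only member of 20 past 2-fold, with 0.410 with vitamin E, 0.121 with lutein, 0.0942 with 4-OHT alone and 0.344 with vehicle. The abundant disc rim genes Prph2 and Rom1 differed by 0.47 and 0.24. For 16 ribbon synapse genes the median was 0.13, and none was past 2-fold.

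**Figure D3:**
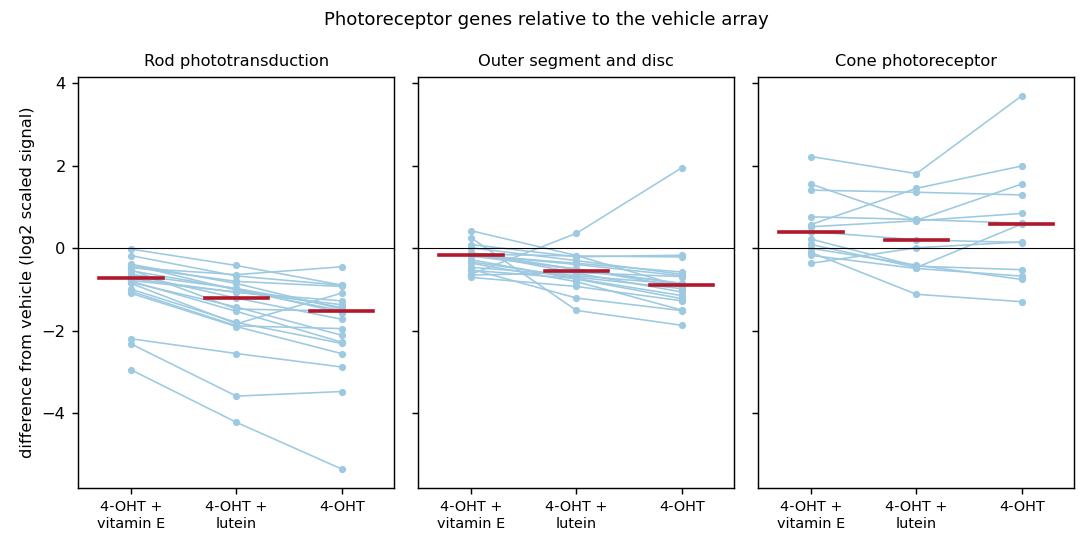
Difference from the vehicle array (log2 scaled signal) for each measured member of 3 photoreceptor lists on the arrays of 4-OHT with vitamin E, 4-OHT with lutein and 4-OHT alone, with a line per gene and the list's median as a red bar. The rod medians are -0.73 with vitamin E, -1.21 with lutein and -1.52 with 4-OHT alone, and the cone genes spread to both sides of vehicle on every array.

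The cone list was mixed. Its median was 0.32 over 13 genes, with 10 above 0 and 3 below. Gnat2, cone transducin, had 2.17 with vitamin E, 1.08 with lutein, 0.951 with 4-OHT alone and 2.34 with vehicle, a 2.02-fold higher level with vitamin E. Opn1sw, the short-wavelength cone opsin, differed by 0.88, at 0.151 with vitamin E, 0.0820 with lutein and 0.151 with 4-OHT alone, and was not well above background with vehicle. Arr3, cone arrestin, differed by -0.88, at 0.441 with vitamin E, 0.809 with lutein, 1.18 with 4-OHT alone and 0.297 with vehicle, but its other probe gave -0.13. The CRX site TAATCC, bound by the photoreceptor homeobox factors CRX and OTX2, was held by 8 of 14 rod phototransduction promoters and 2 of 17 cone promoters, against 7.06% of all promoters. It was also held by 6 of 15 ribbon synapse promoters, a list with a median difference of 0.13. Photoreceptor transcription factors had it in 4 of 19 promoters and outer segment and disc genes in 4 of 19. Gnat1 had no promoter in the table used.

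Subunits of oxidative phosphorylation, abundant in photoreceptors, were higher with vitamin E in all 34 cases, by small amounts between 0.08 and 0.39 with a median of 0.23 and none past 2-fold. The median of this list was -0.22 with vitamin E, -0.46 with lutein and -0.77 with 4-OHT alone relative to vehicle. Symbol genes 1.5- to 2-fold lower with 4-OHT than vehicle were close to this list, with 89.3% of 1549 above 0 between the supplements and a median of 0.22. Proteasome subunits had a median of 0.10 over 26. Of other retinal cell types, bipolar markers had a median of 0.30, with the metabotropic glutamate receptor Grm6 at 0.95 and Cabp5 at -1.003, whose other probe gave 0.50. Müller glia markers had a median of -0.06, above 0 under spike-in scaling, with clusterin (Clu) 2.47-fold lower with vitamin E, at 32.5 with vitamin E, 80.2 with lutein, 124 with 4-OHT alone and 26.2 with vehicle. The summed scaled signal of the 12 Müller markers was 108 with vitamin E, 149 with lutein, 184 with 4-OHT alone and 95.5 with vehicle, but Clu made this order. Without Clu the sum of the other 11 was 75.7 with vitamin E, 68.8 with lutein, 60.3 with 4-OHT alone and 69.3 with vehicle. The sum of the 11 microglia and blood cell markers, of which 5 were measured, was 12.9 with vitamin E, 17.4 with lutein, 32.0 with 4-OHT alone and 12.9 with vehicle. Most of it was Itgam, an integrin of myeloid cells, and without Itgam the sum was 2.5 with vitamin E, 3.23 with lutein, 3.87 with 4-OHT alone and 2.87 with vehicle. The part of these markers in the stress and cytokine differences was not tested.

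The difference between the supplements ran along the difference between 4-OHT and vehicle, whose arrays do not enter the supplement difference. Of 13925 symbol genes 821 (5.9%) stood 2-fold or more above vehicle with 4-OHT and 474 (3.4%) below it. Among those at least 4-fold higher with 4-OHT and measured with a supplement (182), the median difference between vitamin E and lutein was -1.48, and 139 (76.4%) were at least 2-fold lower with vitamin E. Among the 586 that were 2- to 4-fold higher the median was -0.54, and among the 775 that were 1.5- to 2-fold higher it was -0.23. The 9951 genes within 1.5-fold had a median of 0.04. On the other side, the median was 0.22 for 1549 genes 1.5- to 2-fold lower with 4-OHT, 0.34 for 408 genes 2- to 4-fold lower and 0.72 for 27 genes at least 4-fold lower. Past 2-fold the medians were therefore larger in size for genes higher with 4-OHT than for those lower with it, while the 1.5- to 2-fold classes were alike. The size of this gap depended on scaling. Over 10 processing settings the medians of the classes cut at 2-fold ran from -0.68 to -0.51 (higher with 4-OHT) and from 0.23 to 0.46 (lower). Relative to all symbol genes they ran from -0.89 to -0.47 and from 0.24 to 0.33.

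**Figure D4:**
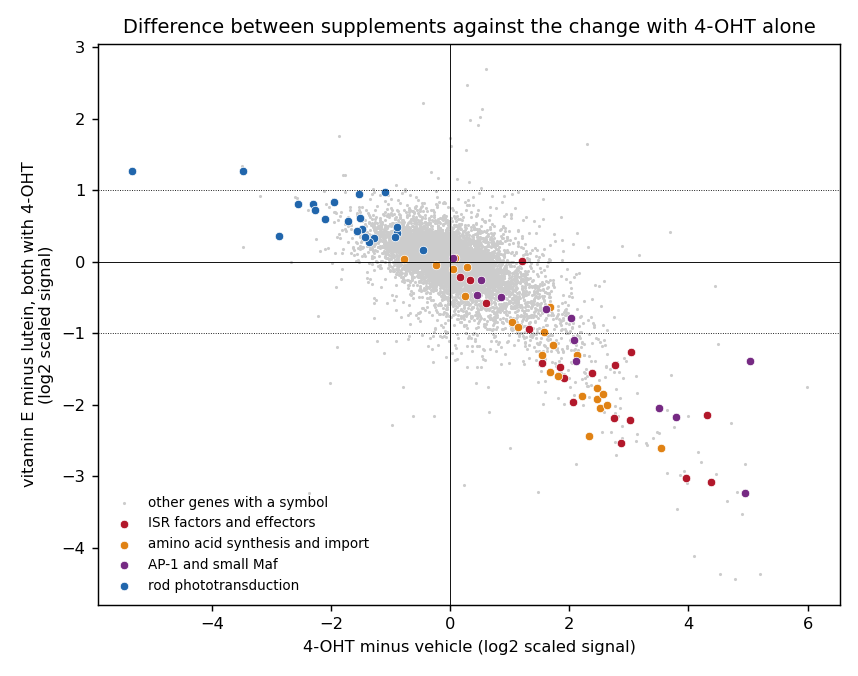
Each point is a gene with a symbol, placed by 4-OHT minus vehicle (horizontal) and vitamin E minus lutein (vertical), both as differences of log2 scaled signal, with 4 lists in colour and 2-fold limits between the supplements as dotted lines. ISR, amino acid and AP-1 genes run down to the right, rod genes up to the left, and the rise on the left is shallower than the fall on the right.

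Seen from the supplement difference, 233 of the 374 symbol genes at least 2-fold lower with vitamin E (62.3%) were at least 2-fold higher with 4-OHT than vehicle, 5 were at least 2-fold lower, 44 were within 1.5-fold, and 66 were not measured between 4-OHT and vehicle. Of the 46 genes higher with vitamin E, 7 were at least 2-fold lower with 4-OHT, 1 was higher, 14 were within 1.5-fold, and 21 were not measured between those arrays. Probes were compared for 188 of the genes lower with vitamin E and higher with 4-OHT, of which 35 had several. Of these 35, 32 had every probe below 0, and 17 had every probe past 2-fold. The probe by which a gene was counted is among those compared, so part of this agreement was given in advance. By sign, 71 of the 768 genes at least 2-fold higher with 4-OHT were above 0 between the supplements, and 36 of the 435 at least 2-fold lower were below 0. Dnaic1, a ciliary dynein chain, was higher with 4-OHT than vehicle and differed by 0.75 between vitamin E and lutein, at 7.31, 4.34, 5.74 and 2.72 in the order vitamin E, lutein, 4-OHT alone and vehicle. Kcnrg, which was lower with 4-OHT, had 0.0675, 0.154, 0.133 and 0.494 in the same order.

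Only 33 symbol genes differed at least 2-fold between the supplements while being within 1.5-fold between 4-OHT and vehicle and well above background on all 4 arrays, 0.341% of the 9690 genes that met the last 2 conditions. Of these, 27 were lower with vitamin E and 6 higher, and in 25 it was the lutein array that lay farther from the mean of 4-OHT and vehicle. A gene's probe was chosen by its mean over all 4 arrays, so a high value on a supplement array could decide that choice. All 33 had scaled signals below 1 on every array. Paqr6, a membrane progestin receptor, had 0.0613 with vitamin E, 0.534 with lutein, 0.0816 with 4-OHT alone and 0.0695 with vehicle, a difference of -3.12, but another Paqr6 probe gave 0.24. That other probe had 0.106 with vitamin E, 0.119 with 4-OHT alone and 0.0823 with vehicle. It was the brighter on every array but that of lutein, whose value thus decided the choice of probe. The third Paqr6 probe was well above background with lutein and no other array, at 0.121. Cyp26a1, which breaks down retinoic acid, had 0.182 with vitamin E, 0.506 with lutein, 0.262 with 4-OHT alone and 0.184 with vehicle. E2f7, a repressor of the E2F family, had 0.290 with vitamin E and 0.750 with lutein, and its other probe gave 0.23. Olfr456, Msr1 and Relt completed the 6 lowest, between -1.33 and -1.27. Over 10 processing settings the difference shrank to -0.52 for Olfr456, -0.62 for Msr1, -0.53 for Relt, -0.57 for E2f7 and -0.97 for Cyp26a1. These values are short of 2-fold, whereas Paqr6 stayed at or below -1.54.

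On the other side, Serinc2 had 0.773 with vitamin E, 0.191 with lutein, 0.225 with 4-OHT alone and 0.160 with vehicle, the highest difference of all symbol genes well above background on both arrays, at 2.02, while another probe of it gave 0.36. Gbp10, an interferon-induced GTPase, differed by 1.92, Shisa9, an auxiliary protein of AMPA receptors, by 1.74, and Kcnj11, a subunit of the ATP-sensitive potassium channel, by 1.16. Over 10 processing settings Kcnj11 fell to 0.35, Serinc2 to 0.85 and Shisa9 to 0.998, while Gbp10 stayed at or above 1.42. Of the 33 genes 5 had several probes to compare, 1 of these had all probes on the same side of 0, and none had all past 2-fold. Slc35a5, counted as lower with vitamin E, gave -1.18 by the probe that stood for it and 1.15 by the other. Tm6sf1, which was not among the 33, had 1.98 by its brighter probe and -0.78 by the other.

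**Figure D5:**
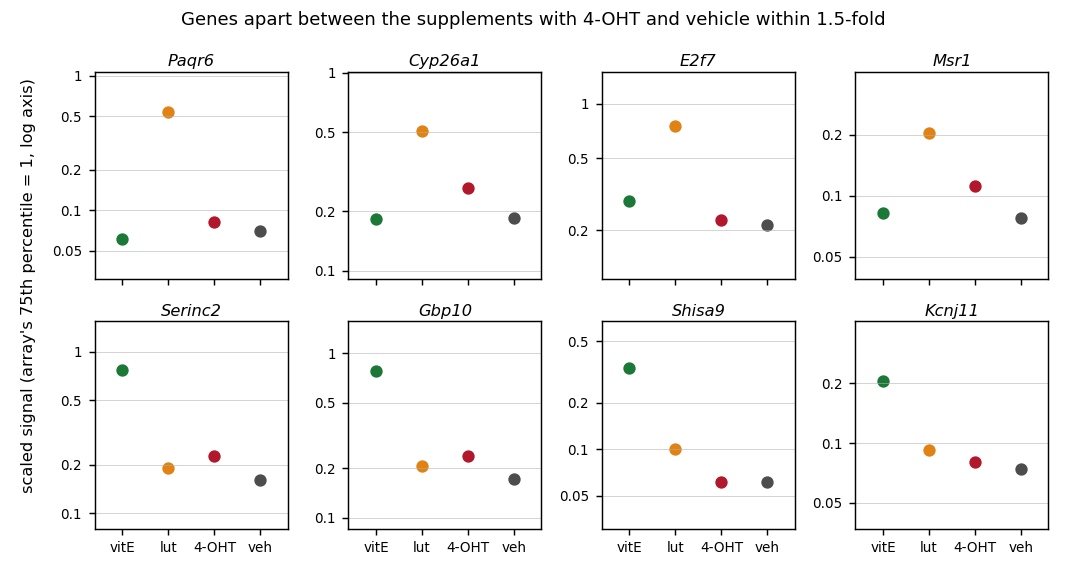
Scaled signal (log axis, array's 75th percentile set to 1) of 8 genes that differed at least 2-fold between the supplements and less than 1.5-fold between 4-OHT and vehicle, 1 point per array. In the upper row lutein stands above the other 3 arrays, and in the lower row vitamin E does; every point lies below 1.

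Relative to 4-OHT alone, no gene of the 19382 well above background on all 4 arrays was at least 2-fold higher with 1 supplement and at least 2-fold lower with the other. The supplement arrays share the 4-OHT and vehicle arrays in such statements, so their values are given side by side. The ISR list had a median relative to vehicle of 0.37 with vitamin E, 2.05 with lutein and 2.06 with 4-OHT alone. The amino acid list had 0.23 with vitamin E, 1.51 with lutein and 1.68 with 4-OHT alone. For AP-1 and small Maf factors the medians were 0.73 with vitamin E, 1.34 with lutein and 2.05 with 4-OHT alone, and for the LIF-STAT3 list -0.01, 0.75 and 1.11 in the same order.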

How the data were processed

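RNA, per the labels, was labelled with Cy3 and read on 1-colour arrays. Feature Extraction 10.7.3.1 is named in the submitters' processing notes. The scanner intensity used had background and spatial trend removed within each array by that software, per the file headers, and was not normalized between arrays. A table of processed signal that the authors deposited equals the scanner values divided by a constant for each array, and was an alternative. The lutein file held 3 significant digits, and 57 of its gene spots bore altered names, so names came from the vitamin E file. Accessions of 28331 of 55681 probes matched RefSeq (GRCm38.p6), which replaced 1403 names. Depth is limited by 1 array per group; of 59305 gene spots, 30411 to 32318 exceeded background clearly and none was saturated.

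Control and outlier spots were left out, log2 intensities were scaled on each array's 75th percentile of gene spots with no pseudocount, and spots were averaged per probe. The probe with the highest mean log2 signal over all 4 arrays stood for its gene, so the arrays being compared entered this choice. For bounds, a dim probe took its own value or, if higher, the smallest value that passed the background flag on its array. The 4 arrays share a slide and a scan, so array position and group cannot be told apart. No test was run: each group was 1 array. Genes were named as the 10 highest and lowest, the 5 largest bounds each way, up to 6 members per list and a fixed set; the text gives a selection, and genes named to complete a short count or as contrasts were chosen after their values were seen. The members and the 50 lists were chosen with earlier results of these data known. Of 909 listed symbols 906 were on the array. Alternatives covered scaling, background, probe choice, filters and limits. Counting was tested on simulated data for vitamin E against lutein (13773 genes, spot noise only): 0 of 50 genes set 1.5-fold lower, 48 of 50 set 2.5-fold lower and 50 of 50 set 3-fold lower were counted. The noise was the SD of 0.16 over all detected replicated probes. At scaled signals under 0.25 that SD was 0.33, so these rates do not carry over to dim genes. Software was R 4.3.3 with limma 3.58.1, Python 3.11.15, NumPy 2.4.6, pandas 2.3.3 and matplotlib 3.10.9. Some genes are not reported here.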

Additional observations from a re-analysis of the deposited data

Results flagged for a closer look

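Of 96 external control (ERCC) probes, 1 was well above background in most of its spots on an array with 4-OHT and not on the vehicle array, a signal outside the gene measurements. This probe, ERCC-00113_271, was well above background in 3.57% of its 28 spots with vitamin E, 21.4% with lutein, 100% with 4-OHT alone and 7.14% with vehicle. Its median intensity was 13.3 with vitamin E, 27.2 with lutein, 55.6 with 4-OHT alone and 16.9 with vehicle. The cause was not tested.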

How the results depend on the processing

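No paired analysis was possible because a group holds a single array. Genes at least 2-fold higher and lower with vitamin E, 106 and 784, became 41 and 273 with normexp background correction, 34 and 450 with detection on both arrays, 664 and 2429 with no filter, 473 and 1892 at 1.5-fold, and 29 and 154 at 4-fold. For symbol genes, 46 and 374 became 16 and 159, 18 and 237, 290 and 1002, 282 and 867, and 8 and 83 under these settings, and the higher count was 79 with quantile normalization and 85 with spike-in scaling. Of all genes counted, the higher ones made up 11.9%, against 20.9% with quantile normalization, 22.1% with spike-in scaling and 21.5% with no filter. Spike-in scaling put the median of symbol genes at 0.21, against 0.04, and list medians moved with it: ISR -1.35, amino acid -1.13, AP-1 -0.78, LIF-STAT3 -0.68, oxidative phosphorylation 0.39 and rods 0.74. The AP-1 median was -0.63 with normexp and -0.72 with the mean of probes, and LIF-STAT3 -0.66 with normexp and -1.27 with no filter. Relative to all symbol genes, rod medians stayed between 0.42 and 0.61 and ISR medians between -1.59 and -1.43 over the 10 settings. Medians of the classes cut at 2-fold moved to -1.48 (higher with 4-OHT) and 0.72 (lower) at a 4-fold limit. Of the 50 list medians, 15 turned sign under at least 1 of 9 alternatives: 9 with spike-in scaling, 4 with quantile normalization, 3 with no filter and 2 or fewer with each of the others. Among these, with no filter, were estrogen receptors (-0.12, against 0.14) and prostaglandin genes (-0.32, against 0.07). Among lists with at least 3 members past 2-fold, the chemokine median was 0.18 with detection on both arrays, the matrix protease median (0.01) was -0.026 with normexp, -0.013 with detection on both arrays and -0.15 with no filter. Gfap came to 0.0 with the mean of its probes. The causes were not tested. Limits: 1 array per group, doses not matched, bounds for dim probes, and higher background spread on the lutein array.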

Other observations

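Named long non-coding RNAs were not uniform. Airn, the antisense transcript of the imprinted Igf2r region, had 0.473 with vitamin E, 1.96 with lutein, 6.13 with 4-OHT alone and 0.846 with vehicle, 4.14-fold lower with vitamin E than with lutein. Kcnq1ot1, the antisense transcript of the imprinted Kcnq1 region, had 0.364 with vitamin E, 0.955 with lutein, 3.36 with 4-OHT alone and 0.621 with vehicle. For both, lutein stood well below 4-OHT alone and vitamin E below vehicle. Snhg1, Neat1, Gas5 and Malat1 differed by -1.05, -0.75, -0.65 and -0.56, while Meg3, H19 and Vax2os lay above 0, at 0.23, 0.64 and 0.80. Meg3 had 1.42 with vitamin E, 1.21 with lutein, 4.19 with 4-OHT alone and 0.566 with vehicle.

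Single genes gave values outside the common order of the arrays. Slc16a4, a monocarboxylate transporter family member, read 0.526 with lutein by its brighter probe. That probe was not well above background on the other 3 arrays, and was at least 12.2-fold lower with vitamin E. Slc16a4 has 2 probes, and over 9 processing settings its difference ran from -5.58 to -0.99. Ms4a4a read 0.405 with lutein and 0.247 with vehicle, and was dim on the arrays of vitamin E and 4-OHT alone. In the opposite direction the brighter Map3k19 probe and the only Ifnk probe were detected on no array but that of vitamin E. They read 0.346 and 0.320, at least 6.08-fold and 5.62-fold above lutein. Over 9 processing settings the difference ran from 0.16 to 4.84 for Map3k19, which has 2 probes, and from 1.59 to 4.33 for Ifnk. Tmem119, a microglial marker, had 0.0647 with vitamin E, 0.209 with lutein and 0.192 with vehicle, and was not well above background with 4-OHT alone. Cyp1b1, a target of the aryl hydrocarbon receptor, had 1.69 with vitamin E, 0.949 with lutein, 0.855 with 4-OHT alone and 0.717 with vehicle.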
